A study of Mus musculus with 45 samples.

Results

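The genes described here are 10 claudins, the membrane proteins that form the strands of tight junctions: Cldn1, Cldn2, Cldn3, Cldn4, Cldn6, Cldn7, Cldn8, Cldn12, Cldn15 and Cldn23. They were taken by gene name, and each has a row in both expression tables. They are 10 of the 33 genes named Cldn followed by a number, among 52636 genes listed in each table. The study measured RNA in mouse intestinal stem cells with and without a working Lgr5 receptor, and in organoids grown in different Rspondin ligands.

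The sorted cells came from 15 libraries made with the Ovation SoLo kit. At embryonic day E16.5, eGFP+ cells of whole small intestine were pooled from Lgr5-DTReGFP embryos, heterozygous (HE) or homozygous (KO) for the knock-in. HE pools held 7 and 8 embryos and KO pools held 2 and 6, from litters 85 and 97, and the HE controls carried the same cassette in a single Lgr5 allele. At E18.5 each of 2 libraries came from a single Lgr5-DTReGFP HE embryo. Adult Lgr5-DTReGFP HE mice were 2 months old, and duodenum and ileum were taken from the same 2 mice. A separate adult set, also 2 months old, compared ileal eGFP+/RFP+ cells of Lgr5-Cre/+ mice, called HE, with those of Lgr5-Cre/flox mice, called cKO, 48 hours after 2 mg of tamoxifen given i.p. In that set the Cre is driven from the Lgr5 locus, so the controls carried a disrupted Lgr5 allele too. The other 30 libraries, depleted of rRNA and made with NEBNext, came from organoids of E17.5 small intestine at passage 4. They were of the Lgr5-DTReGFP line too. Lgr5 wild-type (WT) cultures WT10, WT5 and WT30 and Lgr5 KO cultures KO7 and KO2 were each grown in mouse Rspo1, Rspo2 or Rspo3 at 100 or 5 ng/ml, and values below follow that order of cultures.

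Levels are read counts on genes scaled to library size (CPM), as calculated by the authors. Whole reads could be recovered for the E16.5 libraries, with 1275950 and 1982485 reads on genes for HE, then 2611303 and 2518811 for KO. The depth of the other libraries is unknown, and they held between 15373 and 21679 genes at 1 CPM or more. Sorted cells and organoids were normalized separately, so tests were made only within a table. Differences are of log2(CPM + 1) and were tested with limma over all genes that passed a filter, which left 10 claudins in the E16.5 comparisons and 8 in the adult and organoid ones, where Cldn1 and Cldn6 were too low. In sorted cells a gene was called at an adjusted p under 0.1 with a fold above 1.5, and in organoids at an adjusted p under 0.05.

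Claudins of neighbouring cells meet in the gap between them and decide what may pass. Cldn2 and Cldn15 form channels for small cations, and the intestine needs that sodium path to take up nutrients, while Cldn3, Cldn4, Cldn7 and Cldn8 are mostly known for tightening the barrier. In the gut the set of claudins shifts with age, with region and along the axis from crypt to villus, and Rspondins keep the crypt stem cells by raising Wnt signalling through Lgr4 and Lgr5.

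Lgr5 itself was read first. At E16.5 HE pools held 104 and 125 CPM, while the KO pools held 64.8 and 51.7, a fall that passed the test (log2 difference -0.97, SE 0.18, adjusted p = 0.0795). The KO pools lay below both HE pools, with reads still counted on the gene. E18.5 embryos held 306 and 292 CPM, adult duodenum 346 and 308, and adult ileum 339 and 356. In the Cre set the libraries labelled HE held 52.8 and 87.6 CPM and those labelled cKO held 89.2, 109 and 90.7, so the cKO label went with no lower Lgr5 level (adjusted p = 0.864). A table of genes published with the study names the genotypes of this set otherwise: for each of its columns, all 859 genes it lists equal a single library within 0.05 CPM, and no other library does so for more than 1.51% of them. By that match, the library labelled HE mouse 1 is listed there as cKO and the library labelled cKO mouse 2 as HE. The floxed allele loses a single exon, exon 16, on recombination, so reads on the rest of the gene can go on being counted, and the level of the whole gene need not follow the genotype. Under the genotypes of that table the libraries listed as cKO held 52.8, 89.2 and 90.7 CPM against 87.6 and 109 in those listed as HE, and Lgr5 was not called either (log2 difference -0.37, adjusted p = 0.368). Main results of the Cre set are therefore given under both sets of labels. In organoids, Lgr5 was far higher at 100 than at 5 ng/ml in WT cultures, with log2 differences of 4.49 for Rspo1, 4.52 for Rspo2 and 5.01 for Rspo3 (adjusted p = 4.24e-07, 1.56e-06 and 3.37e-08). KO cultures gave 4.14, 1.01 and 5.00 for the same ligands, of which the Rspo2 value did not pass (adjusted p = 0.821). Between KO and WT cultures Lgr5 was called in 0 of the 6 conditions. At 100 ng/ml the log2 differences were -0.81, -1.97 and -0.27 for Rspo1, Rspo2 and Rspo3 (adjusted p = 0.689, 0.0874 and 0.927), and at 5 ng/ml -0.45, 1.54 and -0.26 (adjusted p = 0.873, 0.104 and 1). With Rspo2 the WT cultures held 379, 247 and 458 CPM at 100 ng/ml and 15.9, 28.7 and 6.1 at 5 ng/ml, and the KO cultures 104 and 75 CPM at 100 ng/ml and 20.6 and 90.5 at 5 ng/ml, so that the genotypes lay apart at the high dose and overlapped at the low one. That dose effect was called smaller in KO than in WT (log2 difference -3.51, adjusted p = 0.0434). The KO cultures ran opposite ways with Rspo2, since KO7 held less Lgr5 at 5 than at 100 ng/ml and KO2 held more.

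Divided by exon length, so that genes can be set side by side, the 10 claudins together held 291 CPM per kb (SD 9.02) in E16.5 HE cells. Cldn7, a claudin of the lateral membrane that mice need for an intact gut lining, made up 50.3% of that sum. Per kb, the order of mean levels there ran Cldn7 at 147 (SD 5.21), Cldn4 at 40.7 (SD 12.7), Cldn2 at 30.8 (SD 1.1), Cldn3 at 27.2 (SD 2.13), Cldn23 at 15.4 (SD 0.478), Cldn8 at 12.5 (SD 2.61), Cldn12 at 8.9 (SD 2.1), Cldn15 at 7.59 (SD 2.31), Cldn6 at 1.29 (SD 0.144) and Cldn1 at 0.274 (SD 0.0803). Taking a mean and its SD as the spread, Cldn4 overlapped with Cldn2 and with Cldn3, Cldn8 with Cldn23, Cldn12 and Cldn15, and Cldn12 with Cldn15. At E18.5 the per-kb order was Cldn7 at 183 (SD 6.82), Cldn2 at 111 (SD 1.4), Cldn3 at 48.1 (SD 0.899) and Cldn15 at 45.8 (SD 6.38), the last pair within its spread, then Cldn4, Cldn12, and Cldn23 and Cldn8 with overlap. In adult duodenum Cldn7 at 131 (SD 3.43) and Cldn3 at 126 (SD 21.5) overlapped at the top per kb, and in adult ileum Cldn7 at 142 (SD 20.4) and Cldn2 at 129.9 (SD 11.5) did. Cldn3 had the highest mean per kb in the Cre set, at 183 (SD 20.5) under the HE label, where it overlapped with Cldn7 at 134 (SD 32.1), and 177 (SD 8.72) under the cKO label, where Cldn7 stood at 133 (SD 5.51). Summed over the 10 genes, the sorted groups after E16.5 held between 410.3 and 521 CPM per kb. Organoids, normalized in a table of their own, held from 666 CPM per kb in WT with Rspo1 at 100 ng/ml to 1117 (SD 194) in WT with Rspo3 at 5 ng/ml. Their per-kb order began with Cldn7, Cldn3 and Cldn15 in most groups, and Cldn3 had the highest mean in 3 of the 12, namely WT and KO with Rspo3 at 5 ng/ml and WT with Rspo1 at 5 ng/ml, where it stood at 269 (SD 73.5) and overlapped with Cldn7 at 265 (SD 58.1). Cldn7 had the highest mean in the other 9 and overlapped with Cldn3 in 6 of them. Cldn1 and Cldn6 closed the order or came next to last in every group of organoids and adults.

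**Figure D1:**
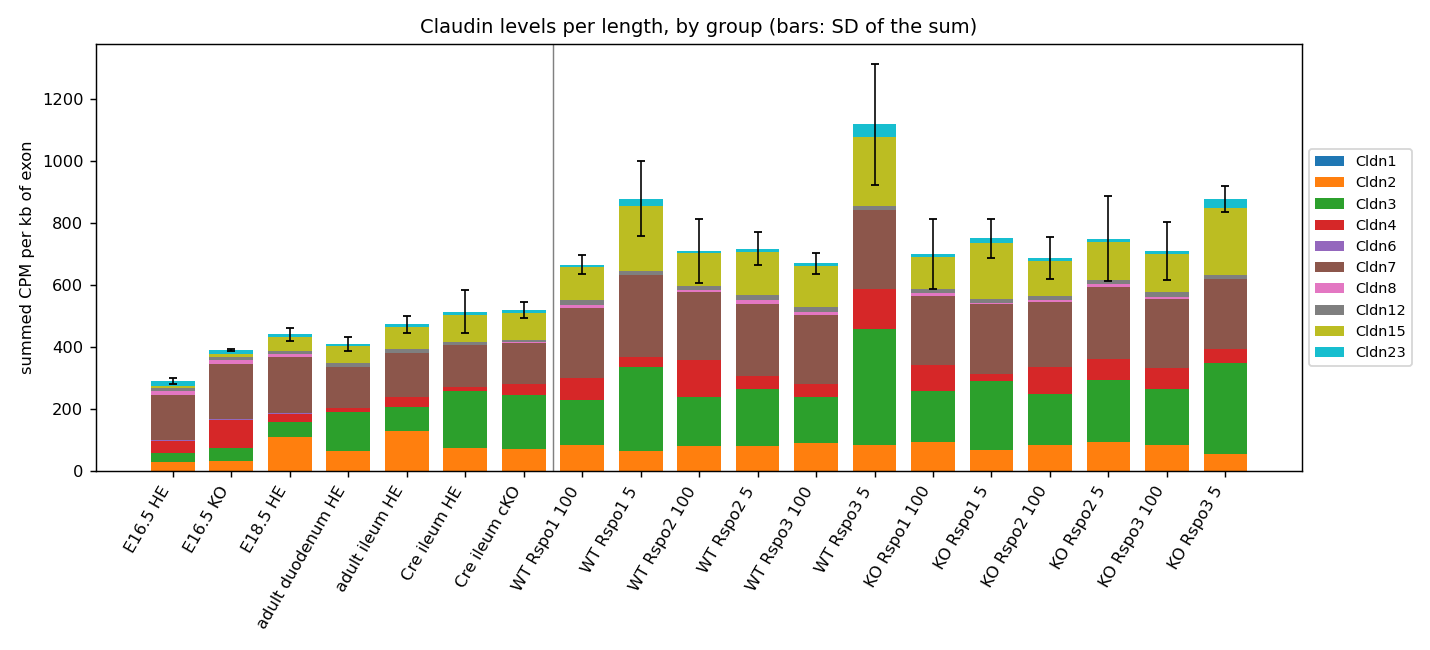
Summed level of the 10 claudins in CPM per kb of exon (vertical axis) in each of 19 groups (horizontal axis), with a coloured segment for each gene and error bars for the SD of the sum over libraries. Sorted cells and organoids were normalized separately, and among sorted cells the sum is lowest in E16.5 HE at 291 CPM per kb.

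At E16.5, Cldn4 was higher in KO cells than in HE cells and was the only claudin called. For this sealing claudin the HE pools held 90.2 and 57.6 CPM, while the KO pools held 182 and 149.7, from 115 and 114 reads against 476 and 377. Both KO pools lay above both HE pools, with a ratio of means of 2.25 (log2 difference 1.19, SE 0.21, adjusted p = 0.0701). That made 1 of 10 claudins, against 0.527% of the 17276 genes tested in this comparison, of which 15 were called higher in KO and 76 lower. Cldn3, another sealing claudin, stood at 36.1 and 32.3 CPM in HE and 51.7 and 53.6 in KO, also without overlap, and did not pass the test (log2 difference 0.61, adjusted p = 0.219). It was not called on the recovered reads by edgeR (log2 difference 0.58, adjusted p = 0.234) or DESeq2 (0.56, adjusted p = 0.947). With litter as a block it passed (adjusted p = 0.0959). Without HE pool 1 it also crossed the limits (log2 difference 0.69), with a single HE pool left and the spread from the KO pools alone. The same holds wherever 1 of 2 libraries of a sorted group is left out below: the library that remains has no spread of its own. Cldn7 held 278 and 293 CPM in HE and 339 and 353 in KO (adjusted p = 0.377). The channel formers Cldn2 and Cldn15 overlapped between the genotypes, as did Cldn8 and Cldn12. Cldn23 held 29 and 27.8 CPM in HE and 24.2 and 25.1 in KO, Cldn6 2.4 and 2.05 in HE and 4.25 and 4.4 in KO, and Cldn1 1.6 and 1.05 in HE and 0.40 and 0.40 in KO. None of these 3 genes was called (adjusted p = 0.734, 0.503 and 0.56). Their values did not overlap between the genotypes, but the share of all genes that did the same is not given here. Cldn6 rested on 3 and 4 reads in HE and 11 and 11 in KO, and Cldn1 on 2 and 2 in HE and 1 and 1 in KO. Cldn1 passed the filter through the HE pools alone. The median log2 difference of the 10 claudins was 0.18, against 0.08 over all genes. Cldn4 lost its call without KO pool 1 (log2 difference 1.04, adjusted p = 0.151), with a pseudocount of 0.1 (adjusted p = 0.206), with no filter on low genes (adjusted p = 0.448) and at an adjusted p under 0.05. It was called by edgeR and DESeq2 on the recovered reads (adjusted p = 0.0208 and 0.00535).

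Markers of other cell types were called in this comparison as well, in cells sorted for eGFP with doublets left out. Of the enterocyte markers 5 of 9 fell, Fabp1 by the largest step (log2 difference -1.7), and their sum was 2449 and 1923 CPM in HE and 1139.9 and 1066 in KO. Of the mesenchyme markers 1 of 8 fell, the collagen gene Col3a1 (log2 difference -2.1), and their sum was 1780.1 and 815 CPM in HE and 181 and 496 in KO. Erythroid markers fell in 2 of 4 cases and summed to 858 and 790.1 CPM against 241 and 358. Epithelial markers, led by Epcam, summed to 2923 and 2627 CPM in HE and 3269.8 and 3051 in KO, with 0 of 7 called. Among stem cell markers Axin2 rose and Lgr5 fell out of 7, and 1 of 7 goblet cell markers rose (Fcgbp). No Paneth (of 6), enteroendocrine (of 7), tuft (of 3), mesothelium (of 1), endothelium (of 4) or immune (of 3) marker was called. Sums of stem cell markers ran from 1358 to 1369 CPM in HE and 1675 to 1880 in KO. Goblet (396 to 415 against 521 to 834) and Paneth sums (84.45 to 92.6 against 142 to 267) also lay higher in KO. Immune (39.45 to 69.85 against 6.2 to 18.7) and endothelium sums (24.35 to 46.4 against 5.05 to 21.15) lay lower in KO. So did mesothelium sums (19.65 to 22.25 against 10.75 to 12.65). None of these sums overlapped between the genotypes, while tuft and enteroendocrine sums did. The part of these markers in the Cldn4 result was not tested, and in sorted bulk cells fewer cells of a type and less RNA per cell cannot be told apart. Among the tight junction partners, the scaffold, adhesion and polarity genes that work with claudins, 0 of 34 were called by limma.

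Cldn3 and Cldn4 lie side by side on chromosome 5, both with a single exon and on opposite strands, 39.3 kb apart with 0 genes between them. A Cldn3 stretch of 40 exon bases, 3.18% of its exon length, is shared with Wbscr25 on the opposite strand, and the labels do not say whether reads were counted by strand. RefSeq promoter windows of GRCm38.p6, running from 250 bases before the start to 50 after it, were held for 8 of the 10 claudins in 11 windows, and for neither Cldn8 nor Cldn23. The windows of the neighbours are shown with that of Cldn15 since both neighbours and Cldn15 moved in the comparisons below and Rspondins act through Wnt signalling. Capitals mark the only match to a motif of the TCF/LEF factors of Wnt signalling (CTTTGAA or CTTTGAT or CTTTGTA or CTTTGTT, on either strand), which stands from -123 to -117 of the start of Cldn4. Cldn4 is given from chr5:134946885-134947184 on the minus strand, Cldn3 from chr5:134985964-134986263 on the plus strand and Cldn15 from chr5:136967619-136967918 on the plus strand.
Cldn4: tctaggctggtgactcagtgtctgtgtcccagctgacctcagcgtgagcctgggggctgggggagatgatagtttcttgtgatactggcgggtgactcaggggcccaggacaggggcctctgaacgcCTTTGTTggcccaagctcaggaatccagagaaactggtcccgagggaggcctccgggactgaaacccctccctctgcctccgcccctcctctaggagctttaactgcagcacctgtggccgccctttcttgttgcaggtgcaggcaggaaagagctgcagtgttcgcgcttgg
Cldn3: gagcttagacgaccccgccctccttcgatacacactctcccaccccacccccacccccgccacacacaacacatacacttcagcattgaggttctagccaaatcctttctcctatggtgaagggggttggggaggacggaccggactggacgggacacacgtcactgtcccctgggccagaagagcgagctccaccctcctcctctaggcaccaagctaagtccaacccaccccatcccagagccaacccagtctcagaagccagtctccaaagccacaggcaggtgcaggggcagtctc
Cldn15: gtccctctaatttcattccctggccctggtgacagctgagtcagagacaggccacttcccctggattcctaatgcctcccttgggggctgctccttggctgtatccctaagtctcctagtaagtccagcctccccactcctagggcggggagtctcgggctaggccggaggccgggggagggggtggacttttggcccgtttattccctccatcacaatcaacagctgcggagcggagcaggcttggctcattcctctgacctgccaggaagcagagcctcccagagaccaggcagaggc

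The TCF/LEF letters occurred in 1 of the 11 claudin windows and in 5544 of all 32851 windows (16.9%). No claudin window held the CDX2 motif TTTATGG, found in 903 windows (2.75%), the HNF4A motif CAAAGTCCA, found in 156 (0.475%), or the GATA motif AGATAA, found in 3672 (11.2%), each searched on both strands. A match describes letters in a window and not a bound site.

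Between E16.5 and E18.5 the channel formers rose in HE cells. Cldn2 went from 105 and 99.9 CPM in the E16.5 pools to 371 and 364 in the E18.5 embryos (log2 difference 1.83, SE 0.10, adjusted p = 1.61e-04). Cldn15 went from 19.6 and 12.7 CPM to 107 and 87.7, a ratio of means of 6.03 (log2 difference 2.54, SE 0.23, adjusted p = 6.60e-04). For both genes every E18.5 value lay well above every E16.5 value. Among sealing claudins, Cldn3 rose from 36.1 and 32.3 to 59.8 and 61.4 CPM (log2 difference 0.81, SE 0.14, adjusted p = 0.00525). Cldn8, a barrier claudin best known from colon and kidney, fell from 25.1 and 33.8 to 17.1 and 19.1 CPM (log2 difference -0.66, SE 0.21, adjusted p = 0.0438). Cldn4 held 54.9 and 43.2 CPM at E18.5, below both E16.5 pools, and was not called (log2 difference -0.56, adjusted p = 0.0951). Cldn23, a claudin of mature surface cells, fell from 29 and 27.8 to 16.2 and 14.1 CPM (log2 difference -0.87, SE 0.19, adjusted p = 0.012), and Cldn6, a claudin of embryonic epithelia, fell from 2.4 and 2.05 to 0.70 and 0.45 CPM (log2 difference -1.04, SE 0.32, adjusted p = 0.0371). Neither gene overlapped between the stages. Cldn6 lay under 1 CPM in both embryos, so it passed the filter through the E16.5 pools alone and could only be called lower. Cldn7 was higher in each embryo, at 365 and 347 CPM, with a fold under the limit (log2 difference 0.32, adjusted p = 0.0333), and Cldn12 and Cldn1 overlapped. In all, 6 of 10 claudins were called, 3 in each direction, in a comparison where 49.6% of 18408 genes were, so that share sits near the background. The claudins' median log2 difference was 0.16, against 0.23 over all genes.

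Some of these calls rest on few libraries. Once E16.5 HE pool 1 or HE pool 2 was left out, Cldn6 was not among the genes tested. Cldn6 lost its call without E18.5 embryo 1 (log2 difference -1.15, adjusted p = 0.35) or embryo 2 (-0.92, adjusted p = 0.466), Cldn8 without embryo 1 (-0.58, adjusted p = 0.258), embryo 2 (-0.74, adjusted p = 0.141) or HE pool 2 (-0.45, under the fold limit), and Cldn23 without embryo 2 (-0.78, adjusted p = 0.123). Cldn4 gained a call without embryo 1 (-0.73, adjusted p = 0.0434), without HE pool 2 (-0.88, with the spread from the E18.5 embryos alone) and under TMM scaling (-0.62, adjusted p = 0.067). The E16.5 HE pools are those of the genotype comparison, and pooling of embryos cannot be told apart from age here. Markers of other cell types fell as well: all 8 mesenchyme markers, summing to 78.2 and 82.4 CPM at E18.5, 3 of 4 erythroid markers, summing to 19.5 and 31, 4 of 4 endothelium markers and 3 of 4 immune markers, with 1 immune marker higher. Mesothelium markers gave 2 rises and 1 fall of 3, enterocyte markers 3 and 2 of 9, enteroendocrine markers 2 and 3 of 7, goblet cell markers 2 and 2 of 7, Paneth cell markers 2 rises of 6, and the 1 tuft cell marker tested was not called. Epithelial markers were higher for 5 of 7 and summed to 4171 and 4092 CPM, and 7 of 7 stem cell markers were higher, and their part in the claudin values was not tested. Of 34 tight junction partners 5 rose and 10 fell, a share near that of all genes, the rises led by Tjp3 1.91, Sympk 1.6 and Micall2 1.29 and the falls by Mpdz -3.61, Rab13 -2.24 and Amotl2 -1.61 (log2 differences).

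From E18.5 to the adult gut, Cldn3 rose and Cldn8 fell. Cldn3 held 139.5 and 178 CPM in adult duodenum and 113 and 85.7 in adult ileum, every value above the E18.5 embryos (log2 difference 1.03, SE 0.26, adjusted p = 0.0348). Cldn8 held 2.7 and 1.6 CPM in duodenum and 2.95 and 2.55 in ileum, against 17.1 and 19.1 at E18.5 (log2 difference -2.48, SE 0.25, adjusted p = 9.05e-04). No adult value of either gene reached into the embryonic range. They were 2 of 8 claudins tested, against 19% of 19554 genes, with a median log2 difference of -0.18 for the claudins and -0.04 for all genes. Cldn3 lost its call without E18.5 embryo 1 (log2 difference 1.01, adjusted p = 0.234) or embryo 2 (1.05, adjusted p = 0.223). Cldn7 was lower in every adult library by less than the fold limit (log2 difference -0.42, adjusted p = 0.0474), and Cldn15 higher in every one without a call (log2 difference 0.44, adjusted p = 0.138). With duodenum as the only adult tissue, Cldn2 (log2 difference -0.73, adjusted p = 7.08e-04) and Cldn4 (-1.01, adjusted p = 0.00174) were called lower too, and with ileum alone Cldn15 was called higher (0.63, adjusted p = 0.0195). Cldn4 was also called without ileum mouse 2 (-0.77, adjusted p = 0.0901). Cldn12, which lacks the tail motif that binds most claudins to ZO proteins, stayed between 44.8 and 53.9 CPM in the 4 adult libraries, and Cldn1 and Cldn6 between 0 and 0.5. The E18.5 libraries are shared with the comparison before, and the 4 adult libraries came from 2 animals.

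Paneth cell markers rose in 8 of 8 cases between E18.5 and adult, from a sum of 153 and 147 CPM to 17033 and 19079.8 in duodenum and 11489 and 32445 in ileum, with Lyz1 the most abundant. All 5 tuft cell markers, 4 of 7 goblet cell markers and 4 of 8 stem cell markers rose, while 7 of 9 enterocyte and 6 of 7 mesenchyme markers fell. Epithelial markers gave 2 rises and 1 fall of 7, immune markers 2 rises of 3, enterocyte markers 1 rise beside those falls, enteroendocrine markers 1 fall of 7, mesothelium markers 2 falls of 3, erythroid markers 3 falls of 3 and endothelium markers 0 calls of 2, and their part in the Cldn3 and Cldn8 results was not tested. Of 34 tight junction partners 2 rose, namely Ildr1 2.53 and F11r 0.81, and 3 fell, namely Amotl1 -3.46, Tjp1 -0.85 and Magi3 -0.74 (log2 differences).

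Within the adult gut, ileum held more Cldn2 and Cldn4 than duodenum. Cldn2 stood at 226 and 216 CPM in duodenum and 459 and 405 in ileum (log2 difference 0.96, SE 0.15, adjusted p = 0.0184). Cldn4 stood at 24.1 and 23.4 CPM in duodenum and 39.2 and 70.3 in ileum (log2 difference 1.11, SE 0.28, adjusted p = 0.0797). Both ileum values lay above both duodenum values for each gene, though the ileum values of Cldn4 lay far apart. Those were 2 of 8 claudins, against 6.88% of 18608 genes, with a median log2 difference of 0.30 for the claudins and 0.03 for all genes. Cldn3 ran the other way, at 139.5 and 178 CPM in duodenum and 113 and 85.7 in ileum, and was called only with mouse as a block (log2 difference -0.67, adjusted p = 0.141, and 0.0507 with the block). Cldn15 held 112 and 116 CPM in duodenum and 139.9 and 163 in ileum (adjusted p = 0.26). Cldn4 lost its call under TMM scaling (adjusted p = 0.107), with no filter (adjusted p = 0.295), at an adjusted p under 0.05, without ileum mouse 2 (log2 difference 0.70, adjusted p = 0.203) and without duodenum mouse 2 (1.09, adjusted p = 0.116), and Cldn2 lost its call with no filter (adjusted p = 0.113). All 5 tuft cell markers were lower in ileum, with sums of 1902 and 3270.3 CPM in duodenum and 233 and 469 in ileum and Dclk1 among them, and 7 of 9 enterocyte markers were lower, with sums of 789.7 and 1158 and 347 and 414. Of 3 immune markers tested, Cd74 was higher in ileum (log2 difference 2.49), Ptprc was lower (-1.75) and Cd52 was not called. Immune markers, mostly Cd74, summed in ileum to 1346 and 1045 CPM against 325 and 237 in duodenum. Epithelial markers were lower in ileum for 2 of 7, Krt8 (log2 difference -0.91) and Krt18 (-1.52), and summed to 5771 and 7134 CPM in duodenum and 4490.1 and 3849 in ileum, without overlap. Agr2 of 7 goblet cell markers was higher (2.34). Goblet sums ran from 1571 to 1725 CPM in duodenum and from 2243 to 8280 in ileum, without overlap and far apart in ileum. Gip of 6 enteroendocrine and Tek of 2 endothelium markers were lower (-2.53 and -2.14), no stem cell, Paneth cell, mesenchyme or erythroid marker was called, and the part of these cell types was not tested. Tight junction partners gave 0 rises and 2 falls of 34, namely Ildr1 -1.53 and Pard6b -0.70 (log2 differences).

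In the Cre set 0 of 8 claudins were called by limma under the deposited labels, and 0 had an unadjusted p under 0.05, against 0.0504% of 19848 genes called and 902 genes at that unadjusted level. Cldn4 spread widely, at 36.9 and 15.3 CPM in the libraries labelled HE mouse 1 and 2 and 86.6, 19.6 and 79 in those labelled cKO mouse 1, 2 and 3 (log2 difference 1.08, SE 0.65, adjusted p = 0.864). The library labelled cKO mouse 2 sat with the lower HE library, and cKO mouse 1 and 3 sat at the top. Under the genotypes of the study's own table Cldn4 was the only claudin called (log2 difference 1.81, adjusted p = 0.0401), with 3.92% of 19848 genes called, 505 of them higher and 274 lower, and with 3 claudins and 4246 genes at an unadjusted p under 0.05. The 3 libraries listed there as cKO held 32121, 35792 and 42154 genes above 0 CPM, against 22675 and 24944 in the 2 listed as HE. In the same order, epithelial markers, led by Krt8, summed to 6637, 5687 and 5747 CPM against 4945 and 4894, enterocyte markers to 957, 566 and 645 CPM against 381 and 419 and tuft cell markers to 102, 84.5 and 73.5 CPM against 36.8 and 22.2. Immune markers, mostly Cd74, summed to 1104, 1213 and 1168 CPM against 898 and 973, and Paneth cell markers, led by Defa24, to 4134, 2764 and 2914 CPM against 7271 and 5470. None of these 5 sums overlapped between the genotypes of that table, while those of stem, goblet and enteroendocrine cells did. Under the deposited labels no marker of any cell type was called, and mesenchyme markers, led by Vim, summed to 20 and 11.5 CPM in HE and 48.6, 22.7 and 53.7 in cKO, without overlap. Stem cell markers, led by Olfm4, did not overlap by those labels either, at 2719 and 3415 CPM in HE and 4088, 3839 and 3869 in cKO, nor did mesothelium markers, at 1.85 and 1.35 CPM in HE and 3.5, 3.4 and 5.5 in cKO. Under the genotypes of the table the mesenchyme sums were 20, 48.6 and 53.7 CPM against 11.5 and 22.7 and overlapped. The markers called there were 4 of 5 for tuft cells, 2 of 8 for enterocytes (Alpi and Anpep), 1 of 7 for enteroendocrine cells (Cck) and 1 of 7 for epithelium (Krt20), all higher in cKO, and 6 of 8 for Paneth cells, all lower. The part of these cell types and of the genes detected in the Cldn4 values was not tested. Cldn2 ran from 191 to 269 CPM over the 5 libraries, Cldn3 from 212 to 249, Cldn7 from 216 to 304.5, Cldn12 from 37.2 to 41.3 and Cldn15 from 174 to 200.5. By the genotypes of the table, cKO before HE, Cldn23 held 24.3, 23.1 and 26.8 CPM against 11.1 and 17.4 (log2 difference 0.79, adjusted p = 0.102) and Cldn8 4.9, 4.6 and 3.15 CPM against 1.3 and 2.1 (log2 difference 0.95, adjusted p = 0.14), each higher in cKO without overlap and without a call. Cldn3 and Cldn15 also lay higher in cKO by that order, and Cldn2 lower, without overlap or a call (adjusted p = 0.451, 0.596 and 0.252), while Cldn7 and Cldn12 overlapped. The share of all genes without overlap by that order is not given here, so these separations are not read as a result about the claudins. The claudins' median log2 difference was 0.04 and that of all genes 0.09, which TMM scaling shifted by -0.13, and by the genotypes of the table they were 0.18 and 0.13. Tight junction partners gave 0 calls of 35 by the deposited labels and 1 by the table, Micall2, higher in cKO (log2 difference 0.72, adjusted p = 0.067). These files do not settle which set of labels is right.

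**Figure D2:**
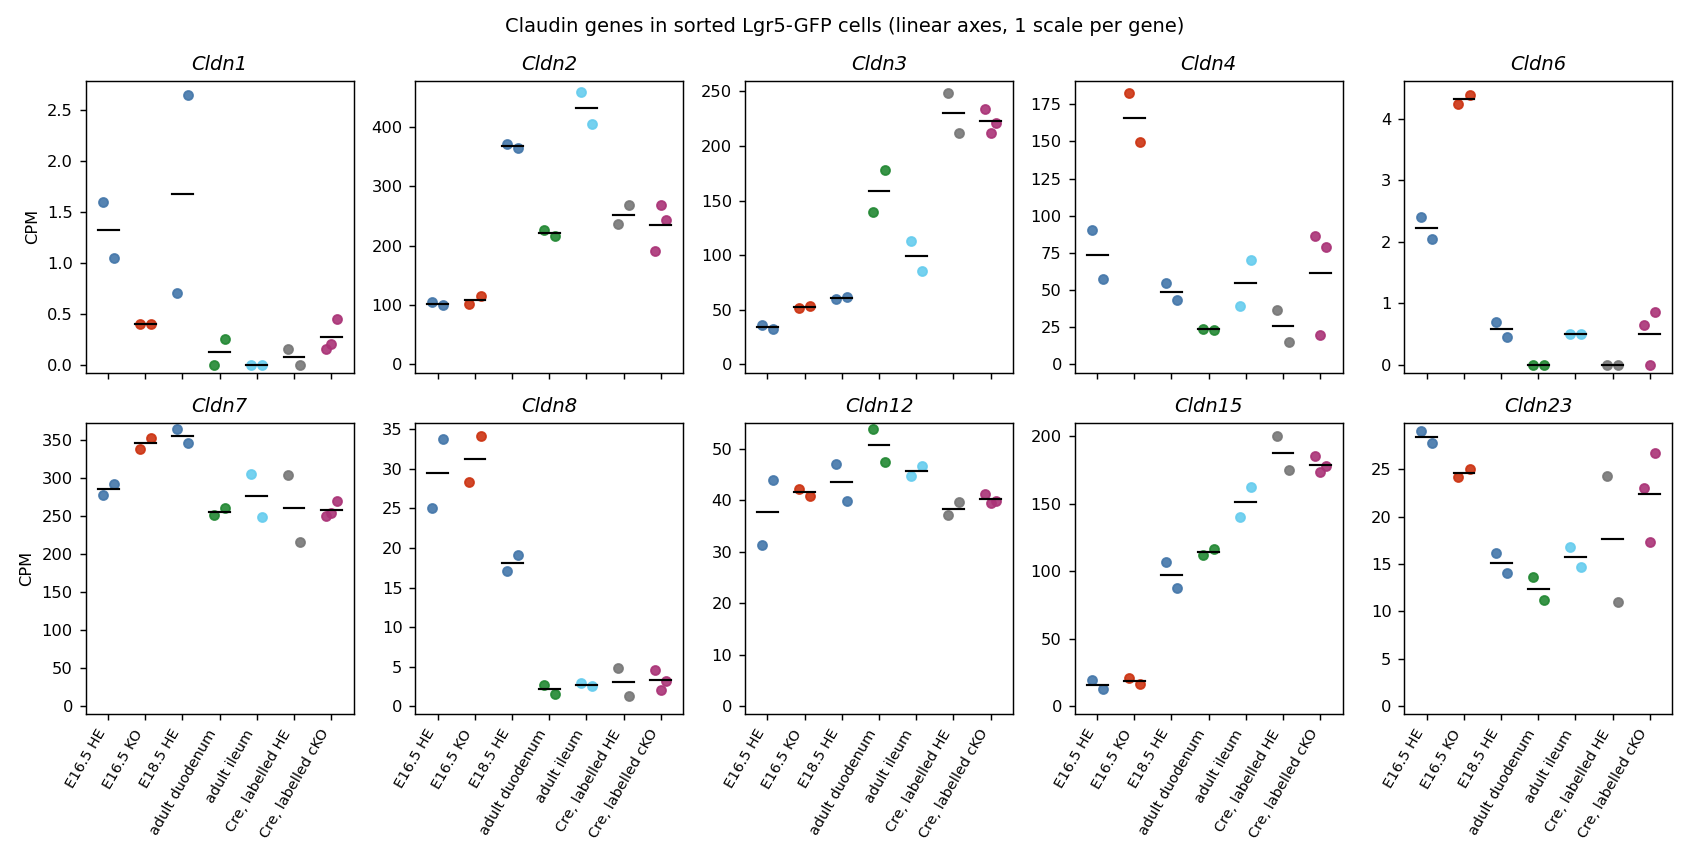
Level of each of the 10 claudins in CPM (vertical axis, linear) in the 7 groups of sorted cells (horizontal axis), with a point for each library and a line at the group mean. Cldn2 and Cldn15 sit higher from E18.5 on, Cldn8 falls to 2.95 CPM or less in the adult duodenum and ileum, and the KO pools of E16.5 hold the highest Cldn4 values.

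Several claudins differed between doses of Rspondin in organoids. Comparing 100 with 5 ng/ml in WT cultures, 5 of 8 claudins were called for Rspo1, where 53.4% of the 19130 genes tested were, 2 of 8 for Rspo2, where 33.4% were, and 5 of 8 for Rspo3, where 51.4% were. In KO cultures 3 of 8 were called for Rspo1 against 29.8% of genes, 0 of 8 for Rspo2 against 0.115%, and 5 of 8 for Rspo3 against 44.5%. For Rspo2 in KO, limma gave 0 claudins and 1327 genes at an unadjusted p under 0.05. These shares lie near those of all genes, and the claudins differed among themselves in direction and by ligand. Median log2 differences of the claudins at 100 against 5 ng/ml were 0.08, -0.21 and -0.48 for Rspo1, Rspo2 and Rspo3 in WT, beside 0.28, 0.17 and 0.24 over all genes. In KO they were 0.06, -0.17 and 0.28, beside 0.19, 0.04 and 0.24. TMM scaling shifted the all-gene medians by -0.27, -0.20 and -0.19 in WT and by -0.19 and -0.22 for Rspo1 and Rspo3 in KO, and turned the direction of no claudin call.

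Markers of several cell types moved with dose as well. At 100 ng/ml 8, 8 and 7 of 8 stem cell markers were higher in WT with Rspo1, Rspo2 and Rspo3, and 8, 0 and 7 in KO. Their mean sum was 3099.9 CPM at 100 and 509.8 at 5 ng/ml of Rspo1 in WT, 4986 and 860 with Rspo2, and 1627 and 166 with Rspo3, with Slc12a2 the most abundant gene throughout. In KO those sums were 3332 and 735 with Rspo1, 3373 and 2702 with Rspo2, and 2214 and 187 with Rspo3. Paneth cell markers were higher at 100 ng/ml for 7, 8 and 6 of 8 in WT and 8, 0 and 7 of 8 in KO. Enterocyte markers were lower at 100 ng/ml for 6, 5 and 6 of 9 in WT and 4, 0 and 6 in KO. Enterocyte sums in WT were 3344 CPM at 100 and 8236 at 5 ng/ml of Rspo1, 4250.2 and 7839 with Rspo2, and 7041 and 11768 with Rspo3, led by Sis, Alpi or Apoa4. Epithelial markers were lower at 100 ng/ml for 4, 2 and 3 of 7 in WT, with Krt19 among them each time, and for 2, 0 and 2 in KO, with Krt18 higher in each of those 5 comparisons. Their sums in WT were 4525 CPM at 100 and 5613 at 5 ng/ml of Rspo1, 4327 and 5331 with Rspo2, and 5105 and 6245 with Rspo3, led by Krt19 or, with Rspo2 at 100 ng/ml, Cdh1, and no sum overlapped between doses of a ligand. Goblet cell markers were lower for 1, 4 and 1 of 7 in WT and 2, 0 and 2 in KO, always with Zg16 where any was called, and Agr2 was higher with Rspo3 in WT, with sums, led by Fcgbp, of 3095 CPM at 100 and 6391 at 5 ng/ml of Rspo2 in WT. Enteroendocrine markers moved both ways, with 2, 1 and 2 of 7 higher and 2, 1 and 1 lower in WT and 0, 0 and 1 higher and 1, 0 and 2 lower in KO, and of 5 tuft cell markers only Pou2f3 was called, higher in 4 of the 6 comparisons. Of the markers of other tissues that passed the filter, Alas2 and Msln were called higher and Upk3b and Pdgfrb lower in at least 1 comparison. No stem cell or enterocyte marker stood at 0 in any organoid library, and the part of these cell types in the claudin results was not tested.

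Cldn15, the channel former, was lower at the high dose in 5 of the 6 dose comparisons. With Rspo1 the WT cultures held 209, 221 and 241 CPM at 100 ng/ml and 452, 412 and 477 at 5 ng/ml (log2 difference -0.99, SE 0.09, adjusted p = 1.16e-07). With Rspo2 they held 232, 224 and 213 CPM at 100 ng/ml and 272, 279 and 325 at 5 ng/ml (log2 difference -0.38, SE 0.09, adjusted p = 0.0042), and with Rspo3 260.4, 270.2 and 308 CPM at 100 ng/ml and 442, 488 and 491 at 5 ng/ml (log2 difference -0.76, SE 0.09, adjusted p = 7.52e-07). In WT no Cldn15 value at 100 ng/ml reached any value at 5 ng/ml of the same ligand, and the gap was smallest with Rspo2. KO cultures held 209.5 and 226 CPM at 100 ng/ml and 398 and 373 at 5 ng/ml of Rspo1 (log2 difference -0.82, SE 0.12, adjusted p = 6.29e-05) and 258 and 257 CPM at 100 ng/ml and 445 and 479 at 5 ng/ml of Rspo3 (log2 difference -0.84, SE 0.12, adjusted p = 5.33e-06). With Rspo2 the KO values overlapped between doses, at 221 and 259.5 CPM at 100 ng/ml and 274 and 239 at 5 ng/ml (log2 difference -0.10, adjusted p = 0.967). The Rspo2 call in WT was lost without culture WT30 (log2 difference -0.27, adjusted p = 0.121) and with a fold limit of 1.5.

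Cldn2, the other channel former, ran from 168 to 356 CPM over the 30 organoid libraries with a median of 275 and was called in a single dose comparison, higher at 100 ng/ml of Rspo3 in KO (log2 difference 0.60, SE 0.20, adjusted p = 0.0162). There the KO cultures held 273 and 285 CPM at 100 ng/ml and 201 and 168 at 5 ng/ml, with no overlap. That call was lost without culture KO2 (log2 difference 0.44, adjusted p = 0.301) or KO7 (0.76, adjusted p = 0.0684) and under TMM scaling (0.31, adjusted p = 0.293). With culture as a block it was also called higher with Rspo1, in WT (log2 difference 0.37, adjusted p = 0.0121, against 0.057 without the block) and in KO (0.44, adjusted p = 0.0206, against 0.0919), and the KO value was called without culture WT30 too (adjusted p = 0.04).

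Among the sealing claudins, Cldn3 was lower at the high dose of Rspo1 and Rspo3 in WT. With Rspo1 the WT cultures held 202, 222 and 113 CPM at 100 ng/ml and 413, 369.7 and 235 at 5 ng/ml (log2 difference -0.94, SE 0.35, adjusted p = 0.0281), and with Rspo3 223, 221 and 115 CPM at 100 ng/ml and 601, 384 and 427 at 5 ng/ml (log2 difference -1.37, SE 0.35, adjusted p = 0.00228). Doses did not overlap for either ligand, and WT30 was the lowest culture at 100 ng/ml of both. With Rspo2 the WT values overlapped, at 267, 191 and 139 CPM at 100 ng/ml and 291, 270.1 and 131 at 5 ng/ml (adjusted p = 0.723). KO cultures ran from 164 to 393 CPM over their 12 libraries, and the Rspo3 value was called only with culture as a block (log2 difference -0.74, adjusted p = 0.168, and 0.00226 with the block). The Rspo1 call in WT was lost without culture WT10 (log2 difference -0.89, adjusted p = 0.103) or WT5 (-1.04, adjusted p = 0.0839) and with no filter (adjusted p = 0.0592).

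Cldn4 varied most between cultures. With Rspo2 the WT cultures held 275, 161 and 211 CPM at 100 ng/ml and 104, 74.9 and 49 at 5 ng/ml, all high-dose values above all low-dose values (log2 difference 1.52, SE 0.55, adjusted p = 0.038). With Rspo1 they held 163, 126 and 103 CPM at 100 ng/ml and 87.2, 49.1 and 35.2 at 5 ng/ml, again without overlap and with no call (log2 difference 1.25, adjusted p = 0.0611). With Rspo3 they held 91, 76.1 and 66.8 CPM at 100 ng/ml and 379, 60.6 and 258 at 5 ng/ml, overlapping, with WT5 low at the low dose (log2 difference -1.22, adjusted p = 0.0706). KO cultures held 222 and 89.5 CPM at 100 ng/ml and 45.2 and 40 at 5 ng/ml of Rspo1 (log2 difference 1.71, adjusted p = 0.0611), 225 and 98.2 CPM at 100 ng/ml and 177 and 66.2 at 5 ng/ml of Rspo2 (log2 difference 0.45, adjusted p = 0.977) and 179 and 70.3 CPM at 100 ng/ml and 116 and 48.8 at 5 ng/ml of Rspo3 (log2 difference 0.57, adjusted p = 0.522). The last 2 pairs overlapped between doses, and KO7 lay above KO2 in each of the 6 conditions. With culture as a block the Rspo1 differences were called in WT (adjusted p = 0.0039) and KO (adjusted p = 0.00318), and the Rspo3 difference in WT as a lower value (adjusted p = 0.00491). Without culture KO2 or KO7, the WT differences with Rspo1 (adjusted p = 0.0416 and 0.0417) and with Rspo3 (adjusted p = 0.0482 in both cases) were called, as was Rspo3 without WT5 (log2 difference -1.99, adjusted p = 0.0184) and under TMM scaling (-1.48, adjusted p = 0.0288). The Rspo2 call was lost without culture WT10 (log2 difference 1.59, adjusted p = 0.107), WT30 (1.25, adjusted p = 0.282) or WT5 (1.74, adjusted p = 0.0503), under TMM scaling (1.28, adjusted p = 0.0777) and with no filter (adjusted p = 0.0734).

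In WT, Cldn8 was higher at the high dose of Rspo1 and of Rspo3. With Rspo1 the WT cultures held 16.9, 15.1 and 27.2 CPM at 100 ng/ml and 2.75, 3.15 and 2.05 at 5 ng/ml (log2 difference 2.47, SE 0.45, adjusted p = 9.67e-05), and with Rspo3 24.5, 18.3 and 38.3 CPM at 100 ng/ml and 1.45, 1.75 and 1.5 at 5 ng/ml (log2 difference 3.39, SE 0.45, adjusted p = 1.62e-06). With Rspo2 they held 16.6, 13.4 and 21 CPM at 100 ng/ml and 26.7, 19.4 and 55.2 at 5 ng/ml, overlapping and highest in WT30 (log2 difference -0.84, adjusted p = 0.153). For Rspo1 and Rspo3 every high-dose WT value was several times every low-dose one. KO cultures held 30.8 and 8.15 CPM at 100 ng/ml and 3.45 and 6.3 at 5 ng/ml of Rspo1 (log2 difference 1.58, SE 0.55, adjusted p = 0.0333), 13.3 and 12.6 CPM at 100 ng/ml and 39.8 and 11.9 at 5 ng/ml of Rspo2 (adjusted p = 0.89) and 11.9 and 13.6 CPM at 100 ng/ml and 0.60 and 2.9 at 5 ng/ml of Rspo3 (log2 difference 2.46, SE 0.55, adjusted p = 9.21e-04). The Rspo1 call in KO rested on KO7, since without it the log2 difference was 0.33, adjusted p = 0.817, and it was lost without WT10 (adjusted p = 0.0771), without WT5 (adjusted p = 0.0546), under TMM scaling (adjusted p = 0.0761) and with no filter (adjusted p = 0.0721). Cldn7 ran from 368 to 648 CPM over the 30 organoid libraries with a median of 439.9 and was called in no comparison, except that TMM scaling called it lower at 100 ng/ml in WT with Rspo1 (-0.55, adjusted p = 4.66e-04), Rspo2 (-0.34, adjusted p = 0.027) and Rspo3 (-0.47, adjusted p = 0.00175).

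Cldn23, like Cldn15, was lower at the high dose of Rspo1 and Rspo3 in both genotypes. With Rspo1 the WT cultures held 18.9, 16.6 and 13.3 CPM at 100 ng/ml and 49.7, 41.5 and 36.7 at 5 ng/ml (log2 difference -1.34, SE 0.20, adjusted p = 9.71e-06), and with Rspo3 15.5, 14.8 and 13.8 CPM at 100 ng/ml and 89.3, 57.5 and 73 at 5 ng/ml (log2 difference -2.22, SE 0.20, adjusted p = 8.24e-09). With Rspo2 they held 16.6, 12.8 and 11.3 CPM at 100 ng/ml and 22.2, 20.3 and 16.3 at 5 ng/ml, which overlapped and just missed a call (log2 difference -0.51, adjusted p = 0.0503). The highest values of all stood at the low dose of Rspo3. In KO, cultures held 13.6 and 19.6 CPM at 100 ng/ml and 28.6 and 26.4 at 5 ng/ml of Rspo1 (log2 difference -0.72, SE 0.24, adjusted p = 0.0289), 11.8 and 19.5 CPM at 100 ng/ml and 25.6 and 17.7 at 5 ng/ml of Rspo2 (adjusted p = 0.766) and 20.5 and 18.6 CPM at 100 ng/ml and 55.3 and 54 at 5 ng/ml of Rspo3 (log2 difference -1.44, SE 0.24, adjusted p = 5.02e-05). The Rspo1 call in KO was lost without KO7 (log2 difference -0.41, adjusted p = 0.517), without WT5 (adjusted p = 0.0567) and with no filter (adjusted p = 0.0582). The Rspo2 difference in WT was called with culture as a block (adjusted p = 0.0134), without KO2 (adjusted p = 0.0359) or KO7 (adjusted p = 0.036), with a pseudocount of 0.1 (adjusted p = 0.0487) and under TMM scaling (-0.74, adjusted p = 0.00433).

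Cldn12 moved little in size but evenly. With Rspo1 the WT cultures held 66.2, 63.7 and 73.8 CPM at 100 ng/ml and 40.5, 51.5 and 50.9 at 5 ng/ml (log2 difference 0.51, SE 0.10, adjusted p = 1.57e-04), and with Rspo3 68.2, 73.6 and 70.6 CPM at 100 ng/ml and 46.8, 48.8 and 48.2 at 5 ng/ml (log2 difference 0.55, SE 0.10, adjusted p = 4.96e-05). Both ligands kept the doses apart in every culture. With Rspo2 the order was the reverse, 55.8, 59.8 and 69.5 CPM at 100 ng/ml and 74.3, 71.5 and 71.3 at 5 ng/ml, with no call (log2 difference -0.23, adjusted p = 0.0654), and a call with culture as a block (adjusted p = 0.0224) or under TMM scaling (-0.47, adjusted p = 0.00499). KO cultures held 64 and 70.9 CPM at 100 ng/ml and 41.1 and 48 at 5 ng/ml of Rspo3 (log2 difference 0.59, SE 0.12, adjusted p = 3.14e-04), and ran from 51.1 to 63.4 CPM with the other ligands. TMM scaling ended the calls with Rspo1 in WT (0.17, adjusted p = 0.257) and Rspo3 in KO (0.31, adjusted p = 0.097), and a fold limit of 1.5 ended those with Rspo1 and Rspo3 in WT. Cldn1 lay between 0.2 and 0.95 CPM in all 30 organoid libraries and Cldn6 between 0 and 0.3, under the filter.

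**Figure D3:**
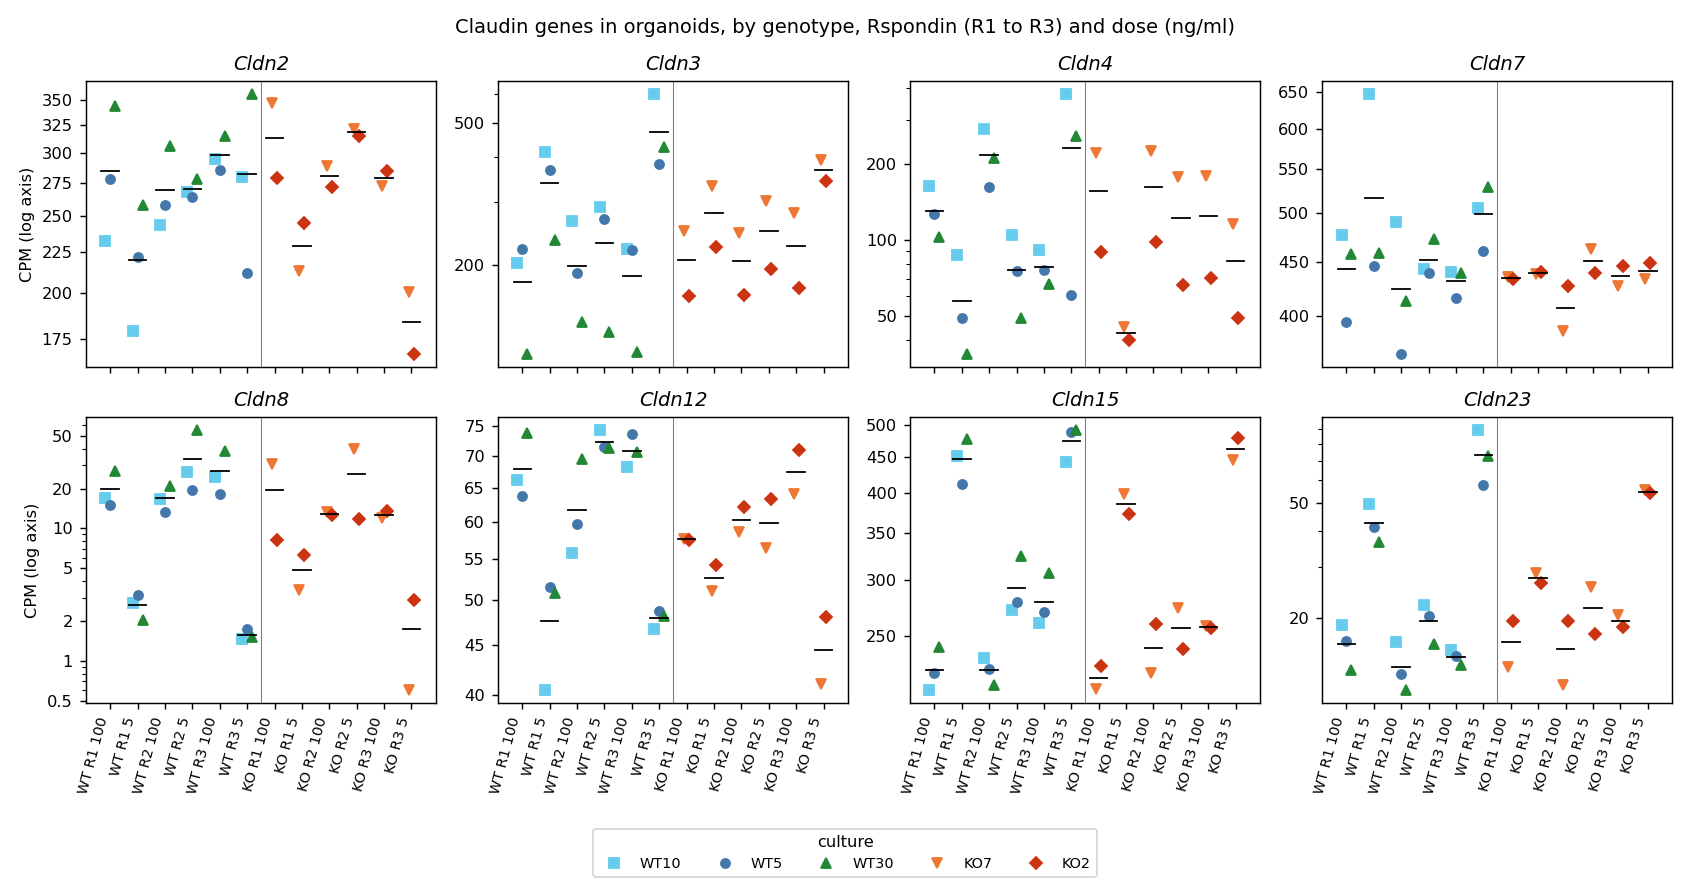
Level of the 8 claudins tested in organoids in CPM (vertical axis, logarithmic) in the 12 groups of genotype, ligand and dose (horizontal axis), with a point for each library, a marker shape for each culture and a line at the group mean. Cldn8 drops to 3.15 CPM or less in WT at 5 ng/ml of Rspo1 and Rspo3, where Cldn15 and Cldn23 lie above their values at 100 ng/ml.

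**Figure D4:**
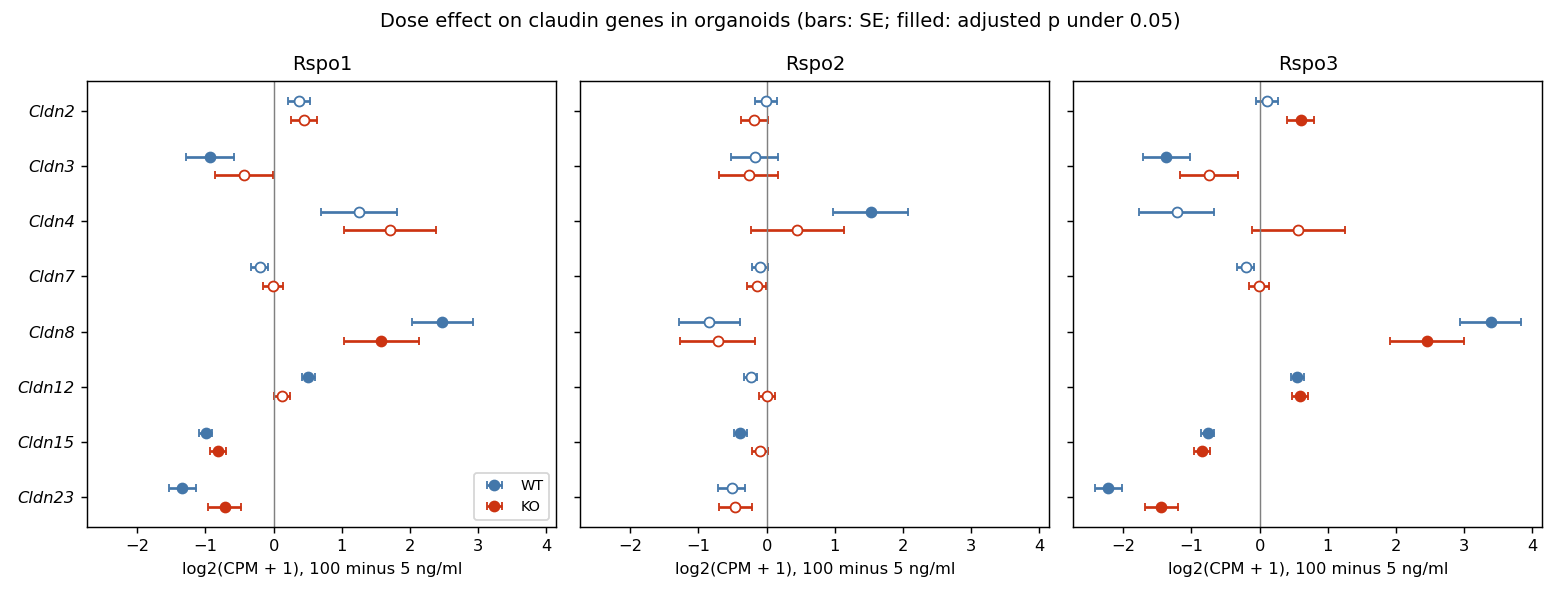
Log2 difference between 100 and 5 ng/ml with its SE (horizontal axis) for the 8 claudins (vertical axis) in WT and KO organoids, in a panel for each of 3 ligands, with points filled where the adjusted p was under 0.05. Cldn8 and Cldn12 lie on the side of the high dose with Rspo1 and Rspo3 in WT, and Cldn15, Cldn23 and Cldn3 on the side of the low dose, down to -2.22 for Cldn23 with Rspo3.

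No claudin was called between Lgr5 genotypes in organoids. Comparing KO with WT cultures, limma called 0 of 8 claudins in each of the 6 conditions, against 0.214% of genes for Rspo1 at 100 ng/ml, 0.125% for Rspo1 at 5, 1.2% for Rspo2 at 100, 4.54% for Rspo2 at 5, 0.868% for Rspo3 at 100 and 0.193% for Rspo3 at 5. At an unadjusted p under 0.05 there were 1, 1, 0, 1, 0 and 1 claudins in that order, and 1688, 1599, 2346, 4232, 2046 and 1033 genes. The claudin nearest to a call was Cldn12 with Rspo2 at 5 ng/ml, lower in KO (log2 difference -0.27, adjusted p = 0.14), followed by Cldn15 in the same condition (log2 difference -0.19, adjusted p = 0.317). At Rspo2 and 5 ng/ml 6 of 8 stem cell and 4 of 8 Paneth cell markers were higher in KO, as was 1 of 2 mesothelium markers, and the 1 endothelium marker tested was lower. In the other conditions 1 of 9 enterocyte markers was higher with Rspo2 at 100 ng/ml. So was 1 of 8 Paneth cell markers with Rspo3 at 100 ng/ml. Mesothelium sums were higher in KO in each of the 6 conditions, without overlap. Only 2 markers of that list passed the filter, so the sums rest on few genes, and whether they reflect mesothelial cells was not tested. With Rspo2 at 5 ng/ml they ran from 14.85 to 36.9 CPM in WT and 94.9 to 298.6 in KO. With Rspo1 at 5 ng/ml they ran from 11.35 to 24.25 CPM in WT and 29.65 to 36.55 in KO. Whether the dose effect itself differed between genotypes was tested for each ligand, and again 0 of 8 claudins were called by limma, against 0%, 0.439% and 0% of genes for Rspo1, Rspo2 and Rspo3. There 1, 0 and 1 claudins and 516, 2438 and 430 genes had an unadjusted p under 0.05. So the calls listed for WT and not for KO do not show a difference between the genotypes. With 3 and 2 cultures a group, only differences well beyond the spread between cultures could be called, and the Rspo2 dose difference between genotypes shifted by 0.13 in the all-gene median under TMM scaling. The groups are those of the dose comparisons.

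Ligands were also compared at matched dose. Against Rspo1 at 100 ng/ml, limma called 0 of 8 claudins for Rspo2 in WT (0.204% of genes), for Rspo3 in WT (0.00523%), for Rspo2 in KO (0.0105%) and for Rspo3 in KO (0%), with 0, 1, 0 and 0 claudins and 1241, 4271, 247 and 713 genes at an unadjusted p under 0.05. The single claudin was Cldn15, higher with Rspo3 in every WT library and called with culture as a block (log2 difference 0.32, adjusted p = 0.0846, and 0.0218 with the block). At 5 ng/ml of Rspo2 against Rspo1 in WT, 4 of 8 claudins were called, against 22.8% of genes: Cldn15 lower (log2 difference -0.61, SE 0.09, adjusted p = 2.08e-04), Cldn23 lower (log2 difference -1.08, SE 0.20, adjusted p = 7.46e-04), Cldn8 higher (log2 difference 3.13, SE 0.45, adjusted p = 1.23e-04) and Cldn12 higher (log2 difference 0.60, SE 0.10, adjusted p = 2.79e-04). In KO, 2 of 8 were called against 17.9%, Cldn15 lower (log2 difference -0.59, SE 0.12, adjusted p = 0.00228) and Cldn8 higher (log2 difference 2.01, SE 0.55, adjusted p = 0.0149). Rspo3 against Rspo1 at 5 ng/ml gave 2 of 8 in WT, against 16.4%, with Cldn4 (log2 difference 1.75, SE 0.55, adjusted p = 0.034) and Cldn23 (log2 difference 0.76, SE 0.20, adjusted p = 0.0116) higher, and 1 of 8 in KO, against 16.2%, with Cldn23 higher (log2 difference 0.97, SE 0.24, adjusted p = 0.00767). Calls at 5 ng/ml beside 0 calls at 100 ng/ml do not show that the ligands differ by dose, and for that the dose effects were compared below. Stem cell markers were higher with Rspo2 than with Rspo1 at 5 ng/ml for 4 of 8 in WT and 7 of 8 in KO, Paneth cell markers for 1 and 8 of 8, and enterocyte markers were lower for 5 and 3 of 9. With Rspo3 stem cell markers were lower for 5 of 8 in WT and in KO, and Paneth cell markers for 4 and 0 of 8, and the part of these cell types was not tested. All these comparisons share their Rspo1 groups. TMM scaling shifted the all-gene median by 0.15 for Rspo3 at 100 ng/ml in WT and by -0.14 for Rspo2 at 5 ng/ml in KO.

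Several ligand calls were lost when a culture was left out, most with a similar log2 difference. For Rspo3 at 5 ng/ml in WT, Cldn4 lost its call without WT10 (log2 difference 1.57, adjusted p = 0.222), without WT30 (1.2, adjusted p = 0.34) and with no filter (adjusted p = 0.0765), and Cldn23 without WT10 (0.72, adjusted p = 0.0964) or WT30 (0.65, adjusted p = 0.119). For KO at 5 ng/ml, Cldn8 with Rspo2 lost its call without KO7 with a much smaller log2 difference (0.82, adjusted p = 0.491), Cldn15 with Rspo2 without KO7 (-0.64, adjusted p = 0.0652), and Cldn23 with Rspo3 without KO2 (0.93, adjusted p = 0.0882) or KO7 (1.01, adjusted p = 0.0575). With culture as a block, Cldn3 was called lower with Rspo2 in WT at 5 ng/ml (log2 difference -0.60, adjusted p = 0.00463) and higher with Rspo3 (0.48, adjusted p = 0.0221), Cldn2 higher with Rspo3 in WT (0.35, adjusted p = 0.0383) and with Rspo2 in KO (0.48, adjusted p = 0.0189), and Cldn4 higher with Rspo2 in KO (1.33, adjusted p = 0.0221). Cldn2 with Rspo2 in KO was called without WT30 as well (adjusted p = 0.0453).

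The dose effect of Rspo2 was set against that of Rspo1 in a test added after the data had been seen. In WT 3 of 8 claudins were called, against 4.7% of genes: Cldn8 (log2 difference -3.31, SE 0.63, adjusted p = 0.00663), Cldn12 (log2 difference -0.74, SE 0.14, adjusted p = 0.00496) and Cldn15 (log2 difference 0.61, SE 0.13, adjusted p = 0.0139). In KO 1 of 8 was, against 2.22%, again Cldn15 (log2 difference 0.73, SE 0.16, adjusted p = 0.0367). Each sign is that of a smaller or reversed dose effect with Rspo2. For Rspo3 against Rspo1, limma called 0 of 8 in WT, against 0.46% of genes, and 0 of 8 in KO, against 0.0836%, with 2 claudins each and 2237 and 1850 genes at an unadjusted p under 0.05. All WT calls were lost without culture WT10, for Cldn8 (log2 difference -3.51, adjusted p = 0.187), Cldn12 (-0.56, adjusted p = 0.187) and Cldn15 (0.48, adjusted p = 0.28). They were also lost without WT5, with log2 differences as large or larger, for Cldn8 (-3.74, adjusted p = 0.0681), Cldn12 (-0.83, adjusted p = 0.0681) and Cldn15 (0.63, adjusted p = 0.161), and Cldn8 was lost without WT30 (-2.69, adjusted p = 0.101). The KO call of Cldn15 was lost without any single culture (log2 difference 0.61, adjusted p = 0.215 without KO2, 0.84, adjusted p = 0.246 without KO7, and with an unchanged difference adjusted p = 0.0947 without WT10, 0.052 without WT30 and 0.0769 without WT5), under TMM scaling (adjusted p = 0.0514) and with no filter (adjusted p = 0.0549). Cldn8 in KO was called without KO2 (log2 difference -4.35, adjusted p = 0.0127), and TMM scaling shifted the all-gene median of that test by 0.12. With culture as a block there were further calls, for Rspo2 in WT Cldn23 (0.83, adjusted p = 0.0177) and Cldn3 (0.76, adjusted p = 0.0222), for Rspo3 in WT Cldn4 (-2.47, adjusted p = 0.00633) and Cldn23 (-0.88, adjusted p = 0.0339), and for Rspo2 in KO Cldn2 (-0.63, adjusted p = 0.0491) and Cldn8 (-2.3, adjusted p = 0.0382).

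Across the 23 organoid comparisons planned, Cldn15 and Cldn23 were called in 7 each, Cldn8 in 6, Cldn12 in 4, Cldn3 and Cldn4 in 2 each, Cldn2 in 1 and Cldn7 in 0. With culture as a block that order changed, to 8 each for Cldn15 and Cldn23, 6 each for Cldn4 and Cldn8, 5 each for Cldn2, Cldn3 and Cldn12, and 0 for Cldn7. Over the 30 organoid libraries, which share 5 cultures and 6 conditions, Cldn15 followed Cldn23 (Pearson r = 0.89), Cldn8 followed Cldn12 (r = 0.85) and Cldn3 followed Cldn23 (r = 0.82). The sets opposed each other, with r = -0.85 for Cldn8 and Cldn23, -0.80 for Cldn12 and Cldn23 and -0.78 for Cldn8 and Cldn15. The neighbours Cldn3 and Cldn4 gave r = 0.20. Of 19130 genes searched, those most like Cldn15 over the same libraries were Scp2 (r = 0.98), Cda (r = 0.98) and Marc2 (r = 0.98). For Cldn23 they were Krt20 (r = 0.96), a keratin of mature gut surface cells, H2-Q2 (r = 0.96) and Slc6a20b (r = 0.96), and for Cldn8 Usp30 (r = 0.95), Xpot (r = 0.95) and Gorasp1 (r = 0.93). These values describe likeness over libraries of shared cultures and carry no test.

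Tight junction partners were called by dose at shares that lay on both sides of those of all genes. At 100 against 5 ng/ml in WT, 11 of 33 rose and 5 fell with Rspo1, the rises led by Cgnl1 2.05, Amotl2 1.7 and Amotl1 1.61 and the falls by Cldnd1 -0.58, Marveld3 -0.42 and Micall2 -0.41 (log2 differences). With Rspo2 5 rose and 2 fell, led by Amotl2 1.68, Amotl1 1.46 and Cgnl1 1.37 and by Micall2 -0.45 and Cldnd1 -0.33. With Rspo3 8 rose and 13 fell, led by Cgnl1 1.49, Ybx3 1.47 and Ildr1 1.24 and by Cldnd1 -0.83, Cxadr -0.80 and Igsf5 -0.79. Cgnl1 encodes a cingulin-like protein of the junction plaque and Amotl1 and Amotl2 encode angiomotin-like junction proteins. In KO, 7 rose and 3 fell with Rspo1, led by Amotl2 2.27, Amotl1 2.27 and Cgnl1 1.75 and by Cldnd1 -0.51, Marveld3 -0.43 and Arhgef18 -0.35, 0 moved with Rspo2, and 9 rose and 7 fell with Rspo3, led by Amotl1 1.97, Cgnl1 1.88 and Amotl2 1.65 and by Cldnd1 -0.93, Igsf5 -0.62 and Marveld3 -0.54. The calls made up 16, 7 and 21 of 33 partners for Rspo1, Rspo2 and Rspo3 in WT, beside 53.4%, 33.4% and 51.4% of all genes, and 10, 0 and 16 in KO, beside 29.8%, 0.115% and 44.5%. At 5 ng/ml against Rspo1, 6 rose and 2 fell with Rspo2 in WT, 7 rose and 4 fell with Rspo3 in WT, 7 rose and 2 fell with Rspo2 in KO, and 2 rose and 4 fell with Rspo3 in KO, beside 22.8%, 16.4%, 17.9% and 16.2% of all genes called in that order. Comparisons of KO with WT, of ligands at 100 ng/ml and of dose effects gave 0 partners each.

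Of the 23 claudin genes outside the list, 17 had a mean under 1 CPM in every group. The other 6 were low: Cldn11 reached a mean of 2.25 CPM and Cldn5, the claudin of blood vessels, 1.08 in E16.5 HE cells, Cldn19 1.25 at E18.5, Cldn14 1.83 and Cldn18, a claudin of the stomach, 2.03 in adult duodenum, and Cldn20 1.33 in the Cre libraries labelled HE. Cldn18 was lower in ileum, at 0 CPM in both mice (log2 difference -1.53, SE 0.39, adjusted p = 0.0862). It passed the filter through the duodenum libraries alone, so a lower value in ileum was the only call open to it. In WT organoids Cldn20 was called higher at 100 ng/ml of Rspo1 (log2 difference 0.54, adjusted p = 0.00535) and Rspo2 (0.54, adjusted p = 0.0112), at means no higher than 1.1 CPM. Its means at 5 ng/ml were 0.35 CPM with Rspo1 and 0.45 with Rspo2, under the 1 CPM of the filter. The filter thus favoured a call in this direction, and the calls are not read as a dose result.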

How the data were processed

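The authors trimmed reads with Trimmomatic 0.36, aligned them to GRCm38 with STAR 2.5.3a, counted them on genes with HTSeq 0.9.1 and deposited CPM, rounded up to the next 0.05. All 45 libraries were used and 0 columns left out. Whole reads were recovered for the E16.5 libraries, where 100% of values came out as whole reads within 0.005 CPM beyond that rounding. Genes had to reach 1 CPM in a number of libraries equal to the size of the smallest group, and were fitted with limma 3.58.1 with a trend (R 4.3.3) on log2(CPM + 1), a pseudocount that understates differences of low genes, and p-values were adjusted by the Benjamini-Hochberg method over all genes. The organoids were fitted together as 12 group means. edgeR 4.0.16 gave TMM factors and, with DESeq2 1.42.0, tests on the recovered reads. Residuals of libraries sharing a litter (correlation -0.0324), a mouse (0.257) or a culture (0.336 by consensus) were compared, and fits with that source as a block were run. Claudins were named by rule as list members, and partners by the 3 largest calls in each direction. The claudins and the lists of tight junction partners, epithelium, stem, Paneth, goblet, tuft, enteroendocrine, enterocyte, mesenchyme, mesothelium, endothelium, immune and erythroid genes were chosen with earlier results of these data known. Exon lengths came from the reference annotation. The scripts were tested on simulated data.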

Additional observations from a re-analysis of the deposited data

Results flagged for a closer look

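For each of the 10 claudins, the 4 adult libraries of duodenum and ileum were looked at for a value far from the rest. Cldn1 had one: 3 libraries held 0 CPM and duodenum mouse 2 held 0.25, so that the gap made up the whole range (a ratio of 1). At the limit used, each such look has a chance of 1 in 20 to show a value apart where values spread, a rate that does not hold at 0 CPM, where a single library with any reads gives a ratio of 1. Of 32 differences in dose effect between ligands, 4 passed the test, all for Rspo2 against Rspo1. In WT organoids these were Cldn15 at 0.61, Cldn12 at -0.74 and Cldn8 at -3.31 on the log2 scale, and in KO organoids Cldn15 at 0.73. Of 24 differences in dose effect between genotypes, 0 passed.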

How the results depend on the processing

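At E16.5, 1 claudin was called, and 0 were at an adjusted p under 0.05 with no fold limit, with a pseudocount of 0.1, and with no filter. With litter as a replicate block 2 were called, and with single pools left out between 0 and 2. All genes called there numbered 91, against 12 at an adjusted p under 0.05, 243 under TMM scaling, 2 with a pseudocount of 0.1, 0 with no filter, 830 with the block, 310 by edgeR, and between 53 and 1075 with single pools left out. For E18.5 against E16.5, 6 claudins were called, and between 3 and 5 with single libraries left out, with 5383 or 5432 of the 9138 genes called once an E18.5 embryo was missing. A block by library number left that count at 6, although libraries of the same number share nothing else there.

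For adult against E18.5, 2 claudins were called, between 1 and 3 with single libraries left out and 4 with duodenum as the only adult tissue. All genes called fell from 3717 to 976 or 927 without an E18.5 embryo. For ileum against duodenum, 2 were called, 1 at an adjusted p under 0.05, 1 under TMM scaling, 0 with no filter, and between 1 and 2 with single libraries left out. Genes called there numbered 1280, against 793 at an adjusted p under 0.05, 223 with no filter, 656 without duodenum mouse 2 and 2065 with mouse as a block. In the Cre set 0 claudins were called, and 1 with the genotypes of the study's table. Genes called went from 10 to 779 with those genotypes, to 18 with no filter, to 16 with a block by library number, which names no shared source, and to between 6 and 22 with single libraries left out.

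In organoids, the dose comparisons gave 12 claudin calls in WT and 8 in KO. For KO, TMM scaling gave 5, and leaving out single cultures between 5 and 9. Culture as a block gave 17 in WT and 11 in KO, and 15 in place of 9 for ligands at matched dose. The dose-by-ligand test, chosen after seeing the data, gave 4 calls, between 0 and 4 without single cultures and 10 with culture as a block. Genes called for dose in WT went from 26458 to 16718 with a fold limit of 1.5, and for dose in KO from 14223 to 6128 without KO7. For KO against WT 1365 genes were called, and between 322 and 2781 without single cultures. For ligands 14068 were called, 8922 with the fold limit, 26746 with the block, 7609 without WT10 and 9112 without WT30. For dose by genotype 84 were called, 47 under TMM scaling, 35 with a pseudocount of 0.1, 761 with the block and between 7 and 477 without single cultures. For dose by ligand 1428 were called, 881 under TMM scaling, 718 with no filter, 7494 with the block and 12, 146 or 89 without WT10, WT30 or WT5. The cause of these moves was not tested.

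Over all claudins and settings, 2504 of 2620 values stayed called or stayed not called, 66 lost a call and 50 gained one. Of the values called under either setting 0 turned direction, while some that were called under neither did. Blocks by a shared source ended no claudin call. Groups held between 2 and 4 libraries, so a call needs a difference well beyond their spread, and leaving out 1 of 2 leaves a library with no spread of its own. Only the E16.5 libraries have a known depth, which leaves Cldn1 and Cldn6 at 11 reads or fewer each. CPM values are relative, so a gene can shift because abundant ones do. Sorted cells and organoids cannot be set side by side in level, embryo age goes with pooling, and the Cre genotypes are in doubt.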
